A study of Mus musculus with 135 samples.

Results

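Haematopoietic stem cells (HSCs) sit at the top of the blood lineage tree, and genes of the myeloid granule and lysozyme programme were examined here in single HSCs from a young and an old mouse. The list was fixed by name and held 6 genes: *Mpo*, *Elane*, *Prtn3* and *Ctsg*, which encode proteins of the azurophil granule, and *Lyz2* and *Cd68*, which encode a secreted and lysosomal lysozyme and a lysosomal membrane glycoprotein. The deposited table of 15181 genes held 5 of them, and *Ctsg* was not analysed here. All cells came from the bone marrow of C57BL/6 mice carrying the Vwf-eGFP reporter, which marks cells that transcribe the von Willebrand factor gene, and were sorted as 7AAD- Lin- Sca-1+ c-Kit+ CD150+ CD48-. The young group came from a mouse of 2 to 3 months and the old group from a mouse of 20 to 25 months, with 1 mouse in each group. Neither group received a treatment, and cells were not selected on the reporter as far as the labels state.

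Complementary DNA was made from each cell on a microfluidic chip and sequenced, and the table gives the number of reads counted on each gene in each cell. After the quality limits of the study, 52 young and 62 old cells were used. Each cell had between 273236 and 5688706 counted reads in the young group (median 2798990) and between 276316 and 4086659 in the old group (median 2116024). The level of a gene is log2(CPM + 1), where CPM is the gene's count scaled to 1000000 counted reads of that cell. A cell was called expressing where this level was above 2. Cells of 1 mouse are not replicates of an age, so no test between ages was made, and each difference is a description of these 2 sets of cells. Intervals are 95% exact intervals, Clopper-Pearson for shares of cells and Poisson for summed reads. They cover counting error of cells or of reads only, and not variation between animals. The reads carry no molecular identifiers, so an interval of summed reads is not one for transcripts, and it leaves out variation between cells. The X-inactivation transcript *Xist* was found in 50 young and 8 old cells, and any of 4 Y-linked genes in 2 and 58. The effects of age, of the animal, of its sex and sex-linked genes and of the capture run cannot be told apart.

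Azurophil granules are the first granules that neutrophil precursors make. Their contents are synthesised at the promyelocyte stage, when myeloperoxidase (*Mpo*), which makes hypochlorous acid, and the serine proteases neutrophil elastase (*Elane*), proteinase 3 (*Prtn3*) and cathepsin G (*Ctsg*) are produced together under transcription factors such as PU.1 (*Spi1*), C/EBPα (*Cebpa*) and *Myb*. Lysozyme is shared by granulocytes, monocytes and macrophages, and *Cd68* marks the endosomes and lysosomes of macrophages. Low amounts of such lineage transcripts in multipotent cells are often described as lineage priming.

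*Prtn3* and *Elane* are neighbours on the same strand and are shown first because their detection differed most among the granule genes. On the GRCm38 build (the assembly also called mm10), *Prtn3* lies at chr10:79879667-79883174 and *Elane* at chr10:79886312-79888216, both on the plus strand with 3137 bases between them. The 250 bases before each start, from RefSeq, are printed 5′ to 3′ with capitals at matches to AGGAAGT (an Ets motif that PU.1 can bind), CAACGG (a *Myb* motif) and TATAA (the TATA box).
*Prtn3*, chr10:79879417-79879666: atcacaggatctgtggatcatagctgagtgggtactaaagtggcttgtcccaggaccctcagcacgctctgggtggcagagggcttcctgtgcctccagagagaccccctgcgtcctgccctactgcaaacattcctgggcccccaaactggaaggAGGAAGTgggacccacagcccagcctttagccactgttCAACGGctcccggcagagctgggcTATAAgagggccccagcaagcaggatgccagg
*Elane*, chr10:79886062-79886311: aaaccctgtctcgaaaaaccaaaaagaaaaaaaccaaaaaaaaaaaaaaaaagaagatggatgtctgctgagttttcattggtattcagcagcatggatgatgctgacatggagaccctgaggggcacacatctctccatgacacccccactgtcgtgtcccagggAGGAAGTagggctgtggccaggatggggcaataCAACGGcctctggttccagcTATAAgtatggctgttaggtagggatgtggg
Both windows held the same 3 motifs in the same order, with first bases at −94, −56 and −32 from the start in *Prtn3* and at −84, −51 and −31 in *Elane*. Searched on both strands of 32817 windows of this length, AGGAAGT was present in 7.69%, CAACGG in 4.05% and TATAA in 22.8%. AGGAAGT was also found before *Mpo* at −223 and, on the minus strand, before *Lyz2* at −100, but not before *Cd68*. TTGCNNAA, a C/EBP motif present in 9.57% of windows, was found before *Cd68* at −43, and TGTGGT, a Runx motif present in 14%, before *Lyz2* at −66. Both were also searched before *Prtn3* and *Elane* and found before neither. The capitals thus mark only the motifs that these genes share. The motifs do not overlap in these windows, and a match describes letters and not a bound site.

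*Lyz2* has a near copy, *Lyz1*, 5522 bases away (*Lyz2* at chr10:117277541-117282272 and *Lyz1* at chr10:117287795-117292868, both on the minus strand), so reads of these genes can be hard to assign. Their coding sequences are both 447 bases long and differ at 22 bases, an identity of 95.1%, with an identical run of up to 118 bases. The first 200 coding bases from the GENCODE transcripts are given to show how far apart the differences lie, with the 15 bases that differ in capitals.
*Lyz2*: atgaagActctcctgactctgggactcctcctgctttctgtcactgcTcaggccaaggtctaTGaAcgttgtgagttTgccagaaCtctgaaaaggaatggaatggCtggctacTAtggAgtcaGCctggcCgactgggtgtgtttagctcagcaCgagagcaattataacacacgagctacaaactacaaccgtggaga
*Lyz1*: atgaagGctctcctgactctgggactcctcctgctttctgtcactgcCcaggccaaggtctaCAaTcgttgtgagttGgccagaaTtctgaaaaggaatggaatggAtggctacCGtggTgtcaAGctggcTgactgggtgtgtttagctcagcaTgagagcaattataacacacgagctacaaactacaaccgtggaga
Of the 1266 stretches of 51 bases in the *Lyz2* transcript, the length of a read, 187 (14.8%) are also in *Lyz1*. *Prtn3* and *Elane*, although related proteases, shared 66.3% of 742 aligned coding bases with no identical run above 17, and neither they nor *Cd68* shared a stretch of 51 bases with another gene. For *Mpo*, 327 of 3137 stretches (10.4%) also occur in other transcripts. Part of these belong to *Gm11505*, an antisense gene that overlaps *Mpo* by 5361 bases and is not analysed here, and no source states whether the counting used strand.

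The transcripts of the gate were detected unevenly. *Kit*, which encodes c-Kit, was expressed by 49 young and 61 old cells, *Ly6a*, which encodes Sca-1, by 28 and 43, and *Slamf1*, which encodes CD150, by 9 and 15. *Cd48*, whose product the gate excludes, was expressed in 1 young and 0 old cells. The stem cell transcription factor gene *Hlf*, which is no part of the gate, was expressed in 49 and 55. *Slamf1* was named after its values were seen.

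The granule and lysozyme genes fell into a common pair and a rare set (see the plot of levels by cell). *Prtn3* and *Lyz2* were expressed in most cells of both ages, whereas *Cd68* was expressed in 11 cells, *Mpo* in 3 and *Elane* in 1. Per kb of transcript, mean CPM ran from *Lyz2* (194 young, 196 old) and *Prtn3* (96.7 and 235) through *Cd68* (37.2 and 8.23) and *Mpo* (2.26 and 4.03) to *Elane* (0 and 0.641). *Lyz2* was thus ahead in the young cells and *Prtn3* in the old cells, and the means of the rare genes rest on a few cells each.

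**Figure D1:**
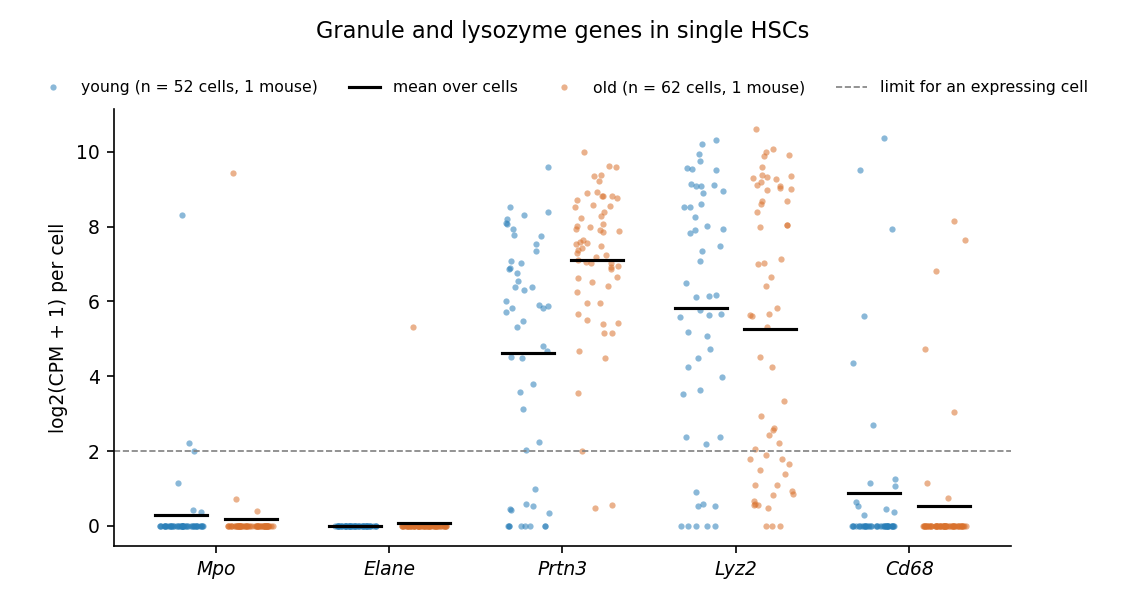
Level of each gene in each cell, as log2(CPM + 1) on the vertical axis, with 52 young cells in blue and 62 old cells in orange; black bars are means over cells and the dashed line is the limit of 2 for an expressing cell. *Prtn3* and *Lyz2* spread from 0 to above 9 in the young cells, *Prtn3* is above the limit in 59 old cells, and *Mpo*, *Elane* and *Cd68* are at or near 0 in most cells.

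*Prtn3* showed the largest difference in mean log2 level among the 5 genes. Expressing cells numbered 38 of 52 among the young (73.1%, interval 59 to 84.4) and 59 of 62 among the old (95.2%, interval 86.5 to 99.0). These intervals did not overlap. Of the 15014 genes with a read, 0.899% had the old interval wholly above the young and 0.733% wholly below it. The level ran from 0 through a median of 5.77 to 9.60 in the young cells and from 0.46 through 7.45 to 9.99 in the old cells. The means were 4.62 (SD over cells 3.09, n = 52) and 7.11 (SD 1.96, n = 62), so the mean was 2.49 higher in the old cells on the log2 scale. The 2 ranges overlapped over nearly their whole length, and the old cells lacked the group at 0 that the young cells held.

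The difference in *Prtn3* had a part in whether a cell expressed it and a part in how much. All 62 old cells had at least 1 *Prtn3* read, against 44 of 52 young cells (84.6%). Of the 14 young cells below the limit, 8 had no read and the others had 1 to 4 reads, while the 3 old cells below it had 1, 1 and 7 reads. Among expressing cells only, the median level was 6.39 in the young (range 2.02 to 9.60) and 7.52 in the old (range 3.56 to 9.99). The median number of counted reads was 2764750 in the young cells without *Prtn3* and 2839016 in those with it. Cell A4, without a *Prtn3* read, was among the shallowest cells used, with 281907 counted reads, and the part of depth was not tested.

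Read totals gave a smaller ratio than mean levels. The young cells held 15423 *Prtn3* reads (interval 15180 to 15668) and the old cells 28658 (interval 28327 to 28992), a log2 ratio of 1.10 after scaling by the total reads. On this measure *Mpo* (1.13) and *Cd68* (-2.43), whose reads sit in a few cells, differed by more. Cell B5 alone held 3902 reads, or 25.3% of the young total, and the highest old cell, F1, held 2724 or 9.51%. Without the highest cell of each age the mean level difference was 2.54.

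Of all genes, 3.91% were higher by at least 1 in the old cells and 4.49% lower by at least 1, with a median difference of -0.020. *Prtn3* lay near the upper end, with 44 genes above it. Among the 5 genes it was alone past 1, the other differences being -0.56 for *Lyz2*, -0.37 for *Cd68*, -0.11 for *Mpo* and 0.086 for *Elane*. The median over the 5 genes was -0.11.

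**Figure D2:**
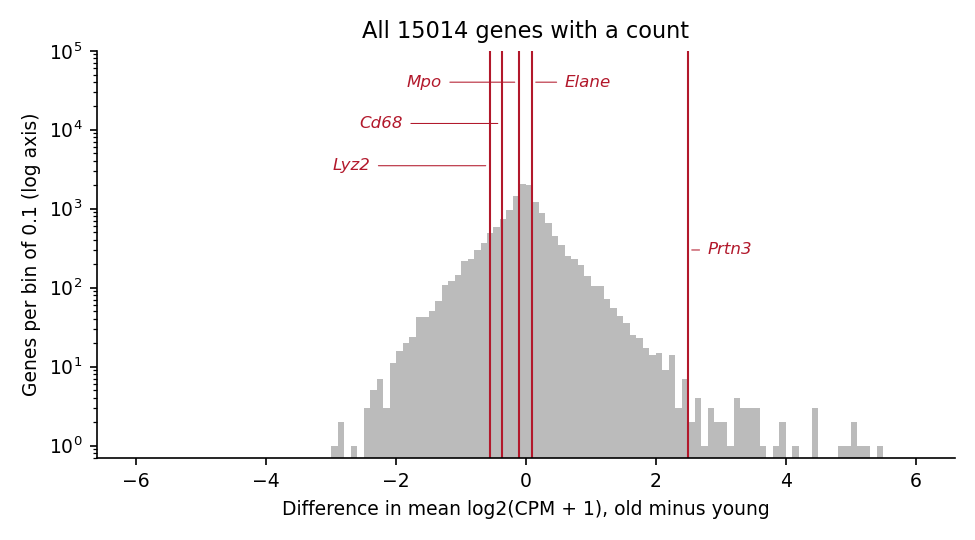
Old mean minus young mean of log2(CPM + 1) over the 15014 genes with a read (grey, number of genes per bin of 0.1 on a log axis), with red lines at the granule and lysozyme genes. *Prtn3*, at 2.49, lies in the upper tail, and *Lyz2*, *Cd68*, *Mpo* and *Elane* lie between -0.56 and 0.086.

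*Prtn3* was lower in the young cells that expressed cell cycle genes. Any of the 4 genes *Cdk1*, *Ccna2*, *Ccnb1* and *Cdc25c*, which drive DNA replication and mitosis, was expressed by 27 young and 13 old cells. Among young cells, *Prtn3* was expressed in 22 of the 25 without such a gene (88.0%, interval 68.8 to 97.5) and in 16 of the 27 with one (59.3%, interval 38.8 to 77.6). The mean *Prtn3* levels were 5.61 and 3.71. The share and the level were lower in the young cells with a cell cycle gene, and the intervals of the shares overlapped.

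Among the old cells these values lay closer together. *Prtn3* was expressed in 47 of the 49 old cells without a cell cycle gene (95.9%) and in 12 of the 13 with one (92.3%), with mean levels of 7.13 and 7.04. Restricted to cells without a cell cycle gene, the old mean was 1.52 higher than the young, and the intervals of the shares overlapped. Restricted to cells with one, it was 3.33 higher, again with overlapping intervals. The old level was thus the higher in both strata, and the part of the cell cycle in the difference was not tested.

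Set against the 14 young cells without *Prtn3*, the 38 with it had 0 of the 4 cell cycle genes higher by at least 1 and 2 lower by at least 1, *Ccnb1* by -2.31 and *Cdk1* by -1.42. Over 13999 genes the shares higher and lower by this much were 6.14% and 7.86%. Of the 7 HSC genes 1 was higher by at least 1 in the cells with *Prtn3* and 1 lower, with a median of 0.142. The lower gene was *Kit* (-1.24), and *Hlf*, *Mecom* and *Ly6a* differed by less than 1. Among the lysosomal genes 3 of 20 were higher, *Lyz1* (1.76) among them, and 4 lower, among them *Lamp2* (-1.56) and the protease gene *Ctsd* (-2.13). Of these 20 genes 10 lay above 0 and 10 below, with a median of -0.009. *Lyz2* was 1.75 higher in the cells with *Prtn3*.

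*Lyz2* was the other common gene, and its share pointed the opposite way. There were 43 expressing cells at each age, or 82.7% of the young (interval 69.7 to 91.8) and 69.4% of the old (interval 56.3 to 80.4). The intervals overlapped. The level ran from 0 through 6.16 to 10.31 in the young cells and from 0 through 5.66 to 10.61 in the old cells, with means of 5.82 (SD 3.32) and 5.26 (SD 3.63). The young and old cells covered the same range, and mean CPM was 255 and 258.

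The lower old share came with cells that held a few reads below the limit. At least 1 *Lyz2* read was present in 47 of 52 young cells (90.4%) and in 59 of 62 old cells (95.2%). Thus 16 old and 4 young cells held *Lyz2* reads without reaching the limit, and none of them had more than 4 reads. When each cell was thinned to 250000 reads, where a single read passes the limit, the shares were 82.7% and 77.4%. Whether the cells with a few reads made the transcript was not tested.

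**Figure D3:**
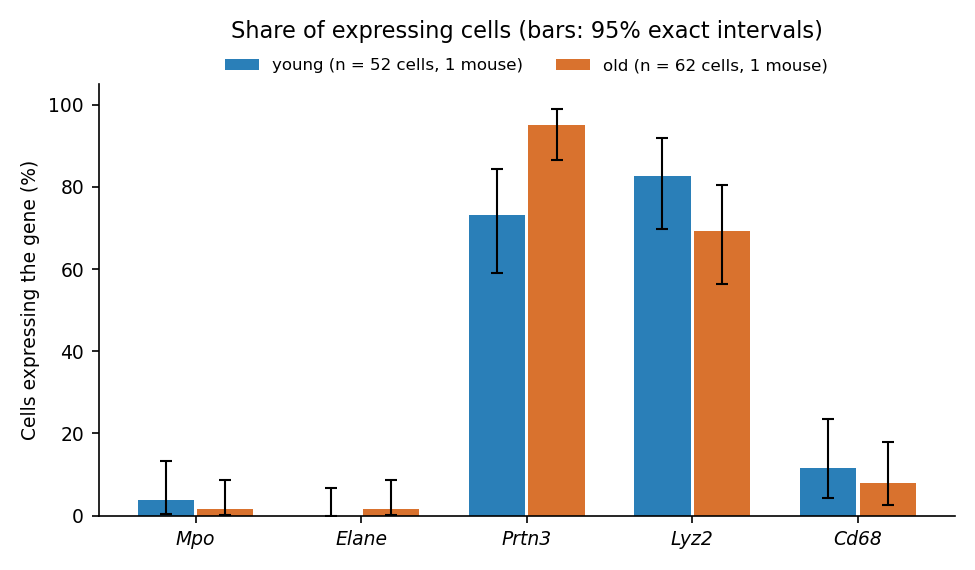
Share of cells expressing each gene (vertical axis, percent) in 52 young (blue) and 62 old (orange) cells; thin bars are 95% exact intervals for counting error. The intervals are apart for *Prtn3* (73.1% against 95.2%) and overlap for the other genes.

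*Lyz1* followed *Lyz2* closely. It was expressed in 39 young (75%) and 38 old cells (61.3%), and its level correlated with that of *Lyz2* with r = 0.95 over the young and r = 0.95 over the old cells. No other gene came near this, the next for *Lyz2* being *Rsf1* (r = 0.35) and *Plxnc1* (r = 0.34) over all cells used. These correlations are descriptions over cells of 2 mice. Because 1 alignment was kept per read and the genes share sequence, how many *Lyz1* reads come from *Lyz2* was not tested.

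The division of reads between the lysozyme genes nevertheless varied from cell to cell. *Lyz1* took 18.3% of the reads of both genes in the young cells and 16.1% in the old. In cells with at least 10 reads of each gene it ranged from 7.19% to 78.8% in 39 young cells and from 6.90% to 70.7% in 32 old cells. None of the cells used had *Lyz1* reads without *Lyz2* reads, whereas 5 young and 12 old cells had the reverse. Young cell D7, left out by the quality limits, had 13 *Lyz1* reads and no *Lyz2* read. Counted as a single gene, the pair was expressed in 43 young (82.7%) and 45 old cells (72.6%), with mean levels of 6.15 and 5.56.

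**Figure D4:**
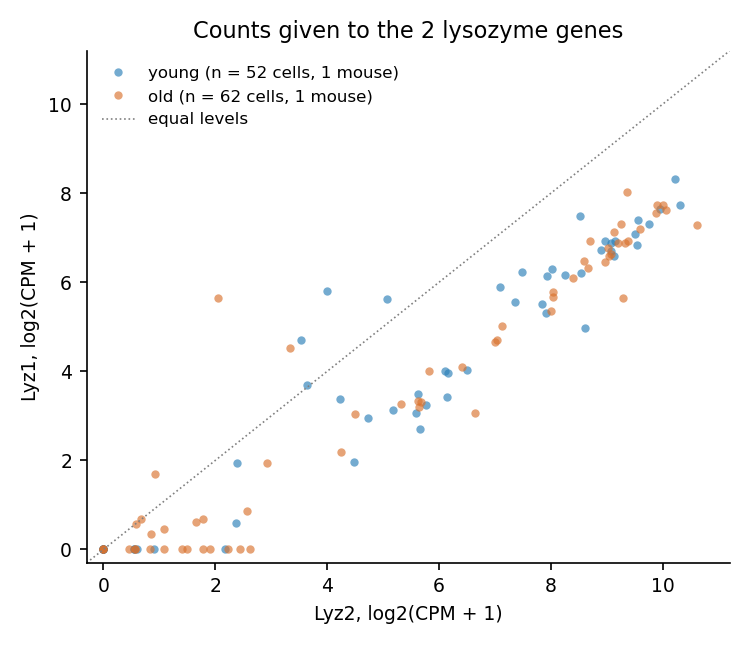
Level of *Lyz1* (vertical) against *Lyz2* (horizontal), both log2(CPM + 1), in 52 young (blue) and 62 old (orange) cells; the dotted line marks equal levels. Most cells lie below the line on a common band (r = 0.95 in each age), and a few lie on or above it.

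Young cells with *Lyz2* (43) expressed more genes than those without it (9), with medians of 4180 and 3477, and a cell cycle gene in 24 against 3. Against this background, in which 17.2% of genes were higher by at least 1 in the cells with *Lyz2* and 5.87% lower, 9 of 20 lysosomal genes were higher and 1 lower. *Lyz1* is among the 9. It is the near copy of *Lyz2* and followed its level with r = 0.95, so its difference is no separate observation. How far shared reads make this difference was not tested. The sphingolipid enzyme subunit *Hexa* (difference 2.46) and the cholesterol carrier *Npc2* (2.03) were among the higher ones. In the old cells, where 43 had *Lyz2* and 19 did not, the medians were 4066 and 3679 genes, and 3 of 19 lysosomal genes, *Lyz1* included, were higher by at least 1 and 2 lower, beside 8.61% and 2.84% of all genes. *Npc2* differed there by -0.52, opposite in sign to the young cells.

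Some genes of other programmes also differed between cells with and without *Lyz2*. *Spi1*, which encodes PU.1, was expressed in 11 of the 43 young cells with *Lyz2* and in none of the 9 without it, and in 9 of 43 and none of 19 in the old cells. *Procr*, the endothelial protein C receptor of HSCs, was expressed in 25.6% and 0% of these young cells and in 51.2% and 10.5% of the old. *Ly6a*, which encodes Sca-1, went opposite ways, 3.32 lower with *Lyz2* in the young and 1.76 higher in the old cells. Intervals of the shares overlapped for *Spi1* at both ages and for *Procr* in the young cells, but not for *Procr* in the old. No share of all genes with intervals apart is given for this split, so how unusual this is was not tested. Of the myeloid regulators, 3 of 10 were higher by at least 1 and 0 lower in the young cells. In the old cells 0 of 9 were past 1 either way. Of the 7 HSC genes, 2 were higher and 2 lower in the young cells, and 2 and 0 in the old. The shares of all genes higher and lower by at least 1 were 17.2% and 5.87% in the young cells and 8.61% and 2.84% in the old. The genes named here were picked after their values were seen.

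*Cd68* (chr11:69664213-69666170, minus strand) passed the limit in 6 young cells (11.5%, interval 4.35 to 23.4) and 5 old cells (8.06%, interval 2.67 to 17.8). The levels in the young cells were 2.71, 4.34, 5.61, 7.93, 9.52 and 10.37, and in the old cells 3.04, 4.72, 6.80, 7.63 and 8.16. The shares overlapped, and the highest levels were young. Reads summed to 8101 and 1296, but 5113 of the young reads were in cell B3 and 2221 in cell H11. The genes most like *Cd68* over all cells used were *Eif4ebp3* (r = 0.49), *Tm2d1* (r = 0.44) and *Ccdc176* (r = 0.43), each expressed in 14 to 27 cells.

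Other macrophage transcripts were rare, and whether they occurred in the cells with *Cd68* was not tested. Of 12 macrophage and monocyte genes listed, 6 were in the table, of which *C1qa* and *C1qc* were expressed in no cell, *C1qb* in 2 young and 1 old, *F13a1* in 0 and 1, *Ly6c2* in 0 and 2, and *Itgam*, the CD11b integrin, in 8 and 1. The summed level of this list had a median of 0.40 in the young cells (up to 9.08) and 0.39 in the old (up to 7.36).

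*Mpo* (chr11:87793784-87804412, plus strand) was rare. Reads were present in 6 young and 3 old cells, and 2 of 52 young cells (3.85%, interval 0.469 to 13.2) and 1 of 62 old cells (1.61%, interval 0.0408 to 8.66) passed the limit. Of the 961 young reads, 949 were in cell H11 (level 8.30), and of the 1823 old reads, 1820 were in cell F8 (level 9.42). The second young cell, H6, passed with a single read because it had 273236 reads in all, and cell H8, with 8 reads, did not. *Mpo* was therefore strong in 1 cell of each age and nearly absent from the others.

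*Elane* was rarer still. In the cells used it had no read in any of 52 young cells, with an exact interval up to 6.85% (taking 3 cells as the limit of a count of 0 gives 5.77%), and 104 reads in 1 old cell, C4 (level 5.32; 1.61%, interval 0.0408 to 8.66). *Prtn3*, 3137 bases upstream, had 1573 reads in that cell (level 9.21). Among the cells left out by the quality limits, 1 young cell, C1, held 702 *Elane* reads (level 7.34) beside 4102 *Prtn3* reads (level 9.88).

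The cells with *Mpo* or *Elane* also held the common pair. All 3 cells expressing *Mpo* and the cell expressing *Elane* expressed both *Prtn3* and *Lyz2*, and no cell expressed *Mpo* together with *Elane*. Over both ages the product of the shares gives 2.55 cells for *Mpo* with *Prtn3* and 2.26 for *Mpo* with *Lyz2*. For *Elane* it gives 0.85 and 0.75, and for *Mpo* with *Elane* 0.026. The counts could hardly differ from these products, so they cannot show whether the genes go together. H11 had *Prtn3* at 6.32, *Lyz2* at 8.52 and *Cd68* at 9.52, the only cell with 4 of the 5 genes. It also held the progenitor genes *Cd34* (10.80) and *Flt3* (9.66), the myeloid regulators *Spi1* (5.53), *Irf8* (4.99) and *Cebpa* (3.16), with *Kit* at 6.06, *Hlf* at 7.07 and no *Cd48* read.

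The other strong *Mpo* cell looked different. F8 had no *Cd34*, *Flt3*, *Cebpa* or *Spi1* read, *Kit* at 7.48, *Hlf* at 9.79, 2 cell cycle genes and *S100a8*, a gene of neutrophil granules and cytosol, at 5.51. C4, the *Elane* cell, likewise had *Kit* at 9.63 and *Hlf* at 7.25 and no *Cd34* or *Flt3* read. H6, with its single *Mpo* read, had *Cd34* at 10.91 and no *Flt3* read. The 4 cells thus differed in their progenitor genes, and with so few cells no comparison was made.

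Because *Prtn3* was common and *Mpo* and *Elane* rare, hardly any cell expressed more than 1 granule gene. Of the young cells 14 expressed none of the 3, 36 expressed 1 and 2 expressed 2. Of the old cells 3 expressed none, 57 expressed 1 and 2 expressed 2, and no cell of either age expressed all 3. At least 1 granule gene was present in 73.1% of young and 95.2% of old cells (interval 59 to 84.4 and 86.5 to 99.0), which are the same cells as those with *Prtn3*.

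*Prtn3* and *Lyz2* were found together in most cells. Both were expressed in 33 of 52 young cells (63.5%, interval 49 to 76.4), where the product of the shares gives 31.4 cells. In the old cells both were expressed in 41 of 62 (66.1%, interval 53 to 77.7), where the product gives 40.9. Because 59 of the 62 old cells expressed *Prtn3*, the old count could hardly differ from the product. It therefore cannot show whether the 2 genes go together. Young cells with *Lyz2* expressed *Prtn3* in 76.7% of cases and those without it in 55.6% (5 of 9), and old cells in 95.3% and 94.7%. The levels correlated with r = 0.27 over the young and 0.086 over the old cells. All 11 cells with *Cd68* expressed *Lyz2*, where the product of the shares gives 8.30, and 9 of them expressed *Prtn3*.

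**Figure D5:**
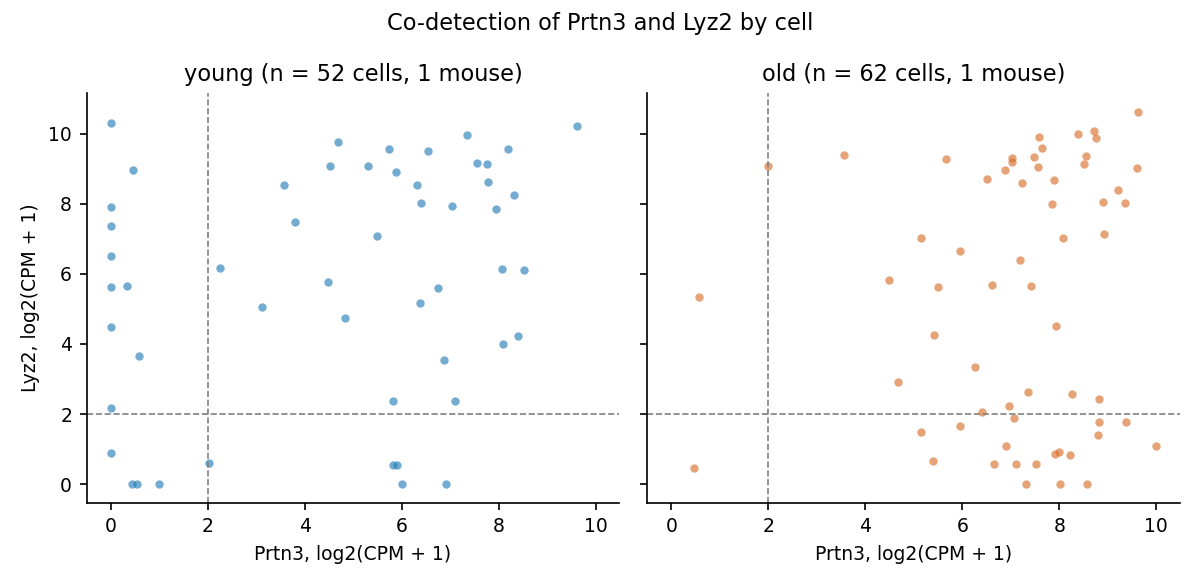
Level of *Lyz2* (vertical) against *Prtn3* (horizontal), both log2(CPM + 1), by cell, with 52 young cells on the left and 62 old cells on the right; dashed lines mark the limit of 2. The upper right part holds 33 young and 41 old cells; 10 young and 2 old cells have *Lyz2* without *Prtn3*, and 5 young and 18 old cells have *Prtn3* without *Lyz2*.

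Genes listed as granule partners ranged from nearly all cells to almost none. A place on this list does not show that a gene acts in the granule. Of 10 such genes 1 was higher in the old cells by at least 1 and 1 lower, beside 3.91% and 4.49% of all genes, with a median difference of 0.015. *Srgn*, the proteoglycan on which granule proteases are packed, was expressed in 51 young and 61 old cells at mean levels of 9.18 and 9.23. The protease inhibitor gene *Serpinb1a* was expressed in 26 and 26 cells, and *Ctsc*, whose product activates the granule proteases by cutting off their propeptides, in 16 and 21. The gene past 1 upwards was *Gstm1*, a glutathione transferase, with 32 and 58 expressing cells and mean levels of 4.15 and 7.81, and the gene past 1 downwards was the chaperone *Calr* (6.39 and 5.29). At the other end, *Prss57* was expressed in 2 and 1 cells, *Cst7* in 1 and 1, *Ms4a3* in 0 and 3 and *Clec12a* in 2 and 0. These genes and *Ctsc* are named after their values were seen.

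Late granule genes were nearly absent. Of 13 neutrophil genes listed, 4 were in the table, with *S100a8* expressed in 4 young and 3 old cells, *S100a9* in 2 and 2, *Ngp* in 1 and 2, and *Chil3* in 1 and 0. The median of their summed level was 0 in both ages, with maxima of 8.83 and 7.81.

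The regulators of the programme were unevenly present. The table held 11 myeloid regulators, of which 0 were higher by at least 1 in the old cells and 1 was lower, beside the same 3.91% and 4.49% of all genes, with a median difference of -0.089. *Myb* was expressed in 51 young and 54 old cells and *Runx1* in 38 and 45, while *Spi1* was expressed in 11 and 9, *Cebpa* in 2 and 0 and *Cebpe* in none. The gene past 1 was *Klf4*, with mean levels of 3.97 and 2.51. *Csf3r*, the receptor for granulocyte colony-stimulating factor, was expressed in all 52 young and all 62 old cells (5.27 and 5.52), and 0 of the 8 myeloid receptors measured were past 1 in either direction.

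Lysosomal genes differed in both directions. Of 20 such genes 4 were higher by at least 1 in the old cells and 1 lower (*Gusb*, -1.03, named after its value was seen), beside 3.91% and 4.49% of all genes, with a median difference of 0.078 and 0 with intervals of the share apart. *Ctsd* was at 3.77 and 5.49 and *Lamp2*, a membrane protein of the lysosome, at 4.71 and 5.72, whereas *Ctsb*, another lysosomal protease, was at 5.70 and 5.66. Of the 20 genes 11 lay above 0, *Ctsd* and *Lamp2* among them, and 9 below. *Lyz2* and *Cd68* also lay below 0.

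The genes whose levels were most like *Prtn3* over all cells used were *Gm7030* (r = 0.45), *Sult1a1*, a sulfotransferase (0.42), and *Selp*, which encodes P-selectin of platelets (0.41). Within the young and old cells these values were 0.41 and 0.21, 0.20 and 0.29, and 0.16 and 0.27. *Selp* was expressed in 5 young and 42 old cells, so the pooled value for it carries the difference between the 2 sets of cells. *Prtn3* had r = 0.012 with the counted reads of the cell in the young and -0.12 in the old.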

How the data were processed

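The deposited table holds read counts per gene and cell, without normalization. As the methods state, the authors mapped single reads of 51 bp to mm10 with TopHat2 2.0.10, kept 1 alignment for each, and used rpkmforgenes on RefSeq models to count them, its version being not given in the sources used here. Reads of near copies (*Lyz1* and *Lyz2*) or antisense genes were not separated.

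Counts were scaled to CPM by the total of the cell, and the level is log2(CPM + 1). The methods require 500000 mapped reads, no more than 10% mitochondrial reads and 3000 genes at an RPKM of 1. These limits left out 21 cells and kept 52 young and 62 old. No test was possible with 1 mouse per age. A gene was called past a level difference of 1 between 2 sets of cells. The named genes were the list, at most 5 genes of each of 14 lists with the highest shares (granule, granule partners, late neutrophil granule, lysosome, lysosomal, myeloid regulators, myeloid receptors, macrophage, HSC, progenitor, B cell, erythroid, megakaryocyte and cell cycle), and the 3 genes with the highest Pearson r to a member expressed in at least 10 cells. Other genes named (*Ctsc*, *Cebpa*, *Cebpe*, *Irf8*, *Spi1*, *Hexa*, *Npc2*, *C1qc*, *Procr*, *Slamf1*, *Gusb*, *Prss57*, *Cst7*, *Ms4a3*, *Clec12a*) were chosen after their values were seen. A gene of the HSC list is not reported here. The members and lists were chosen with earlier results of these data known.

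Alternatives covered all 135 cells, cells with at least 1000000 reads, thinning, cells without a cell cycle gene, other limits for an expressing cell, a pseudocount of 0.1 CPM, summed counts, TMMwsp factors of edgeR 4.0.16 and poscounts factors of DESeq2 1.42.0. The steps were tested on simulated data. The software was R 4.3.3 and Python 3.11.15 with scipy 1.17.1, numpy 2.4.6, matplotlib 3.10.9 and pandas 2.3.3.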

Additional observations from a re-analysis of the deposited data

Results flagged for a closer look

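*Prtn3* was also expressed in the cells that the quality limits left out, which enter no comparison. It was expressed in 6 of 9 such young cells (66.7%, exact interval 29.9 to 92.5) and in 8 of 12 such old cells (66.7%, exact interval 34.9 to 90.1). No comparison was made with these few cells.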

How the results depend on the processing

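The mean *Prtn3* level was higher in the old cells under all 9 alternatives, by 1.10 (summed counts) to 3.13 (pseudocount of 0.1 CPM) and by 1.52 in cells without a cell cycle gene. Of 44 level differences under alternatives, 40 kept their sign. The others were *Mpo* at 1.13 on summed counts, *Elane* at -0.048 with all cells and at 0 without the highest cell, and *Lyz2* at 0.092 without cell cycle genes. Summed counts also moved *Cd68* to -2.43 and gave no value for *Elane*, which had no young read. Of 112 shares, 11 left their interval. In cells without a cell cycle gene, 88.0% of young cells expressed *Prtn3*, the same share had at least 1 granule gene, and 0% of old cells expressed *Mpo*. With 1 read as the limit, the young shares were 84.6% for *Prtn3* and for at least 1 granule gene and 26.9% for *Cd68*, and the old shares 100% for *Prtn3* and for at least 1 granule gene and 95.2% for *Lyz2* and for the pair of *Prtn3* and *Lyz2*. With a limit of 4 the pair was in 48.1% of young cells. No paired analysis was possible because each age is 1 mouse, and no replicate could be left out. The genes most like a member depend on the measure: by Spearman correlation 1 of 3 remained for *Prtn3*, 2 of 3 for *Lyz2* and 0 of 3 for *Cd68*. Within the young cells alone 0, 2 and 1 of 3 remained for these genes, and within the old cells alone 0, 1 and 0. The low read numbers of *Mpo* and *Elane* limit what these cells can show.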

Other observations

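The erythroid and B cell lists, which mark cells that the gate excludes, had few genes in the table. Of 8 erythroid genes 2 were in it, with *Epor* expressed in 4 young and 1 old cells and *Klf1* in 2 and 0. Of 6 B cell genes, *Cd79b* was in it and was expressed in 12 young and 16 old cells. Of the 8 megakaryocyte genes 1 was higher in the old cells by at least 1, beside 3.91% of all genes, namely *Selp*, with mean levels of 0.66 and 5.12, and the median difference of the list was 0.71.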
